A study of Mus musculus with 24 samples.

Results

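Genes of cartilage and bone were followed across the D2A1 and D2.1 mouse mammary tumor cell lines and the tumors they form. The set held 9 genes: Col2a1, Acan, Dlx5, Dlx6, Runx2, Sp7, Ibsp, Spp1 and Alpl. All 9 were listed in both deposited tables, out of 54532 genes in the tumor table and 35275 in the culture table. The genes were selected on measurements of these libraries. They were chosen by the fold change between the lines in tumors of BALB/c hosts (Col2a1 and Dlx5), by the same contrast in SCID-beige hosts (Col2a1) and by the change of D2A1 tumors between the 2 hosts (Ibsp). In those 3 comparisons the values are given as a description, without p-values. The same holds where the tumors that chose Col2a1 or Ibsp enter another comparison of that gene. Tests are given for the others.

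Both lines arose from D2 hyperplastic alveolar nodules of BALB/c mice. D2A1 is the proliferative line and D2.1 the dormant one. Each line was sequenced as cells in culture (3 libraries per line) and as bulk mammary fat pad (MFP) tumors grown in female mice aged 8 to 12 weeks. The BALB/c hosts (BALB/cAnNTac) were immunocompetent and gave 4 tumors per line. The SCID-beige hosts, which carry the Prkdc scid and Lyst bg mutations and so lack T and B cells and have defective NK cells, gave 5 tumors per line. Tumors were collected at about 500 mm3 and snap frozen whole, so each tumor library mixes RNA of tumor cells with RNA of host cells, and fewer cells of a type cannot be told apart from less RNA per cell.

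Cartilage is built by chondrocytes, in which the transcription factor Sox9, with Sox5 and Sox6, switches on the matrix genes Col2a1 (type II collagen) and Acan (aggrecan). Bone is built by osteoblasts, whose differentiation depends on Runx2 and then on Sp7 (osterix), with the homeodomain factors Dlx5 and Dlx6 acting alongside. Mature osteoblasts secrete a type I collagen matrix, phosphoproteins such as Ibsp (bone sialoprotein) and Spp1 (osteopontin), and carry Alpl, the phosphatase that frees phosphate for mineral. Several of these genes are not particular to the skeleton. Spp1 is also made by macrophages and many carcinomas, and Alpl by many tissues.

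Library totals were 16837260 to 24818234 counts in culture and 13566949 to 18355153 in tumors. Levels are given as CPM (counts scaled to the library total) with TMM scaling, and a floor of 3 counts equals 0.121 to 0.178 CPM in culture and 0.163 to 0.221 CPM in tumors, for counting error only. Changes were called by edgeR's quasi-likelihood test at a Benjamini-Hochberg adjusted p under 0.05 over all genes tested. The gene lengths behind the deposited FPKM values differed between the 2 tables (1811 bases for Col2a1 in the tumor table and 5104 in the culture table), so FPKM was compared between genes only within a table. Counts of both tables were joined by gene identifier for comparisons of tumors with culture. Growth site, host cells and the making of the tables cannot be told apart in those comparisons.

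Ibsp and Spp1 are neighbors on chromosome 5, on the plus strand, with 123.6 kb between them and the related gene Mepe in between. They are shown first because they belong to the same cluster, the secreted phosphoproteins of bone and dentin known as the SIBLING family, and were found at different levels across the 6 groups. The 250 bases before their RefSeq starts (GRCm38.p6, plus strand) are chr5:104299037-104299286 for Ibsp and chr5:104434861-104435110 for Spp1. In GENCODE the Ibsp gene begins upstream of its RefSeq start, at base 104299171. Capitals mark matches, on either strand, to 4 motifs. These are TGTGGT (the core motif of Runx factors, ACCACA on the other strand), the box CCAAT (reverse complement ATTGG), the box TATAAA (reverse complement TTTATA) and the homeodomain core TAATTA.
Ibsp: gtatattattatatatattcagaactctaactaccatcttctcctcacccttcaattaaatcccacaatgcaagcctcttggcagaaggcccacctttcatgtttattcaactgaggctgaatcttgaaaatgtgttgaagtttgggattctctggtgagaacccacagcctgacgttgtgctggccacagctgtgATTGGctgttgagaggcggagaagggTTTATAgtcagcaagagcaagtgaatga
Spp1: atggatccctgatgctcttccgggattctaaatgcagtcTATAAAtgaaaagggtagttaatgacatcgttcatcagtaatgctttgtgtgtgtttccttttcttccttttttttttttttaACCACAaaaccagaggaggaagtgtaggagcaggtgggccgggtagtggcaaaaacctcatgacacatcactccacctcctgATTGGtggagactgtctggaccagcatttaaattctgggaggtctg

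Both windows held 1 ATTGG at a similar place, 54 to 50 bases before the start in Ibsp and 46 to 42 in Spp1, and 33.8% of all 32817 promoter windows of this length held that motif. The Spp1 window held 1 Runx core, ACCACA, 128 to 123 bases before the start, and the Ibsp window held none. Of all windows, 14% held the Runx core. The Ibsp window held TTTATA 28 to 23 bases before its start, while the match in Spp1 (TATAAA) lay further upstream, and 12.4% of all windows held one. Neither window held TAATTA, found in 4.85% of windows. Of the 9 genes, 5 had a RefSeq window (Acan, Runx2, Ibsp, Spp1 and Alpl), and a Runx core was also found in that of Runx2, 80 to 75 bases before its start. RefSeq gives Spp1 a second start, and that window held TAATTA 122 to 117 bases before it and none of the other 3 motifs. These matches describe letters only.

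Col2a1 (ENSMUSG00000022483, GRCm38 chromosome 15, bases 97975602 to 98004695, minus strand) was found in D2.1 libraries and was at or near 0 in D2A1. Among D2.1 tumors, it was 33.0, 59.2, 106 and 20.8 CPM in BALB/c hosts and, in SCID-beige hosts, 97.7, 85.8, 47.6, 46.9 and 148 CPM. All 9 D2A1 tumors had 0 counts. Against the floor, the D2.1 level was at least 295-fold higher in BALB/c mice and at least 408-fold higher in SCID-beige mice.

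In culture, where Col2a1 played no part in the choice of genes, the same line carried it at a far lower level. Cultured D2.1 cells had 16, 14 and 18 counts (0.870, 0.619 and 0.964 CPM) and cultured D2A1 cells had 1, 0 and 2. The groups did not overlap, and the ratio of summed counts was 14.4 (95% counting interval 4.65 to 72.4), with an adjusted p of 0.00215. Col2a1 passed the filter on low counts through D2.1 alone, so this p is no independent support for the difference. From culture to SCID-beige tumors, Col2a1 differed in D2.1 by 6.59 ± 0.51 on the log2 scale (SE, given as a description), from a mean of 0.818 ± 0.178 CPM (SD, n = 3) to 85.3 ± 41.9 CPM (SD, n = 5). Between hosts, the D2.1 tumors overlapped. The BALB/c tumors differed from the SCID-beige tumors by -0.61 ± 0.45 on the log2 scale (SE).

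**Figure D1:**
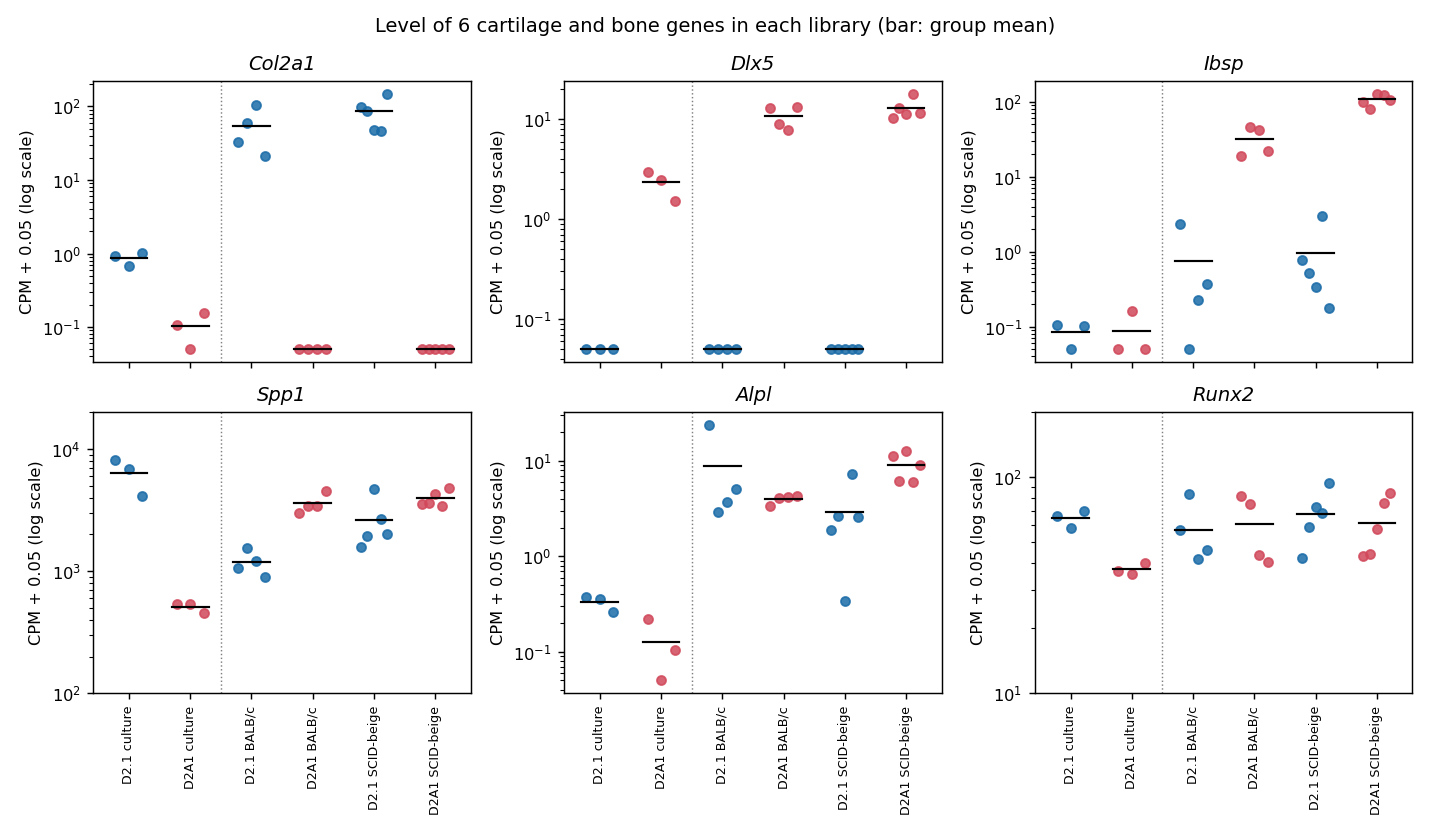
Level of 6 genes in each of the 24 libraries, as CPM plus 0.05 on a log axis, with D2.1 in blue, D2A1 in red and the group mean as a bar. Col2a1 stands at 20.8 to 148 CPM in D2.1 tumors and at 0 in D2A1 tumors, Dlx5 and Ibsp show the opposite line, and Runx2 overlaps in all tumor groups.

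The partners of Col2a1 in cartilage were partly present. Acan, the main proteoglycan of cartilage, had 0 to 3 counts in every one of the 24 libraries. Sox9 was 90.1 to 99.5 CPM in cultured D2.1 cells and 7.26 to 11.4 CPM in cultured D2A1 cells (log2 difference 3.34 ± 0.18, SE, adjusted p = 2.58e-06). In tumors it was 106 to 166 CPM in D2.1 and 8.97 to 49.2 CPM in D2A1, without overlap in either host. Sox5 differed the same way, with 55 to 101 counts in each cultured D2.1 library against 1 to 3 in each cultured D2A1 library, while Sox6 reached 20 counts at most.

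Of a list of 24 further cartilage genes, 6 could be tested in culture, where 44.9% of all genes tested were called (24.2% higher in D2.1). Of these, 4 were higher in D2.1 (Prelp, a leucine-rich matrix proteoglycan, by 8.17; Sox5 by 5.04; Matn4, a matrilin, by 4.57; and Sox9) and 1 was lower (Col11a2, from 2.52 to 3.26 CPM in D2.1 against 5.53 to 6.34). The median log2 difference of the 6 was 3.96, beside -0.02 over all genes. Each of these is a fitted value, and the low counts in D2A1 (1 to 6 for Prelp, 0 to 8 for Matn4) make its size uncertain. Prelp, Sox5 and Matn4 passed the filter on low counts through D2.1 alone, so the count of called genes says little.

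In tumors, 6 of 12 tested cartilage genes were called higher and 2 lower in D2.1 in BALB/c mice (32.6% of all genes called, 16.8% higher and 15.8% lower), and 5 of 12 higher and 3 lower in SCID-beige mice (32.1% called, 17.2% higher and 14.8% lower). Matn4 was 14.3 to 60.8 CPM in D2.1 tumors and at most 0.555 CPM in D2A1 tumors. It passed the filter on low counts in both hosts through D2.1 alone and could be called only as higher, so these counts of called genes say little. Cilp, a protein of the cartilage intermediate layer that fibroblasts also make, was 27.9 to 411 CPM in D2.1 tumors and 2.01 to 13.6 CPM in D2A1 tumors. Col10a1, the collagen of hypertrophic cartilage, went the other way, with 2.61 to 37.2 CPM in D2A1 tumors and 0.642 to 14.2 CPM in D2.1 tumors, where the highest was replicate 4 in SCID-beige mice. Some genes of the list were at or near 0 in tumors of both lines, among them Matn1 (at most 6 counts), Ucma (at most 4), Cnmd (at most 6) and Epyc (at most 7). Others were present. Comp and Col11a1 had 123 and 228 summed counts in D2A1 tumors of SCID-beige mice. In BALB/c mice Comp was called higher in D2.1 (2.39 ± 0.59 on the log2 scale, SE), and Col11a1 was not called (-0.25 ± 0.30, SE). The summed level of 10 fibroblast markers moved with the line as well, at 5060 to 11806 CPM in D2.1 tumors and 1000 to 2312 CPM in D2A1 tumors, and its part in the list counts was not tested.

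**Figure D2:**
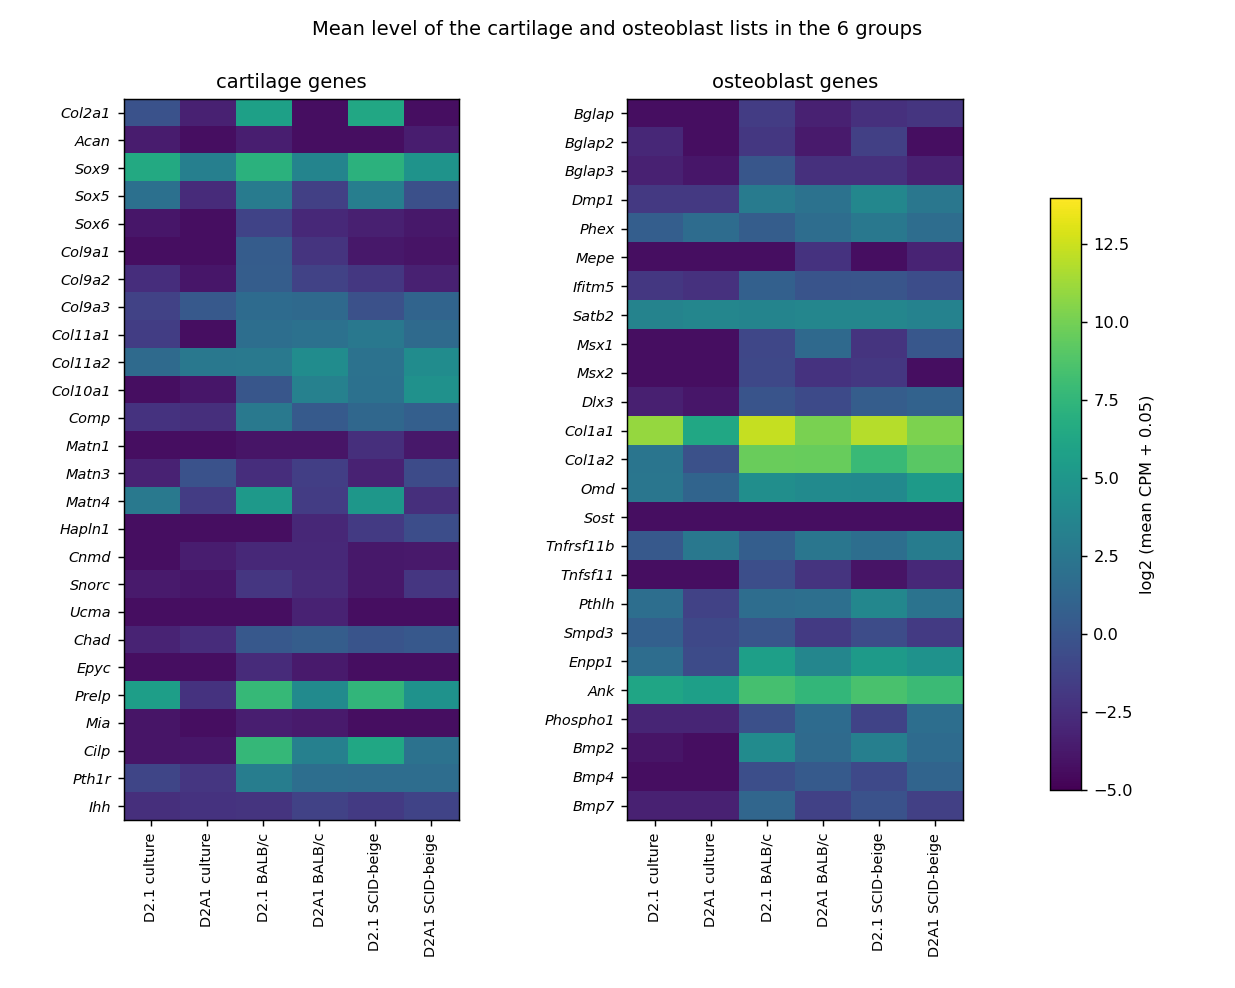
Mean level of Col2a1, Acan and 24 further cartilage genes (left) and of 25 osteoblast genes (right) in the 6 groups, as log2 of mean CPM plus 0.05. Sox9, Prelp, Matn4 and Cilp are brighter in D2.1 tumors beside Col2a1, while Acan, Matn1, Ucma, Epyc and Sost stay dark in every group.

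Dlx5 (ENSMUSG00000029755, chromosome 6, bases 6877805 to 6882085, minus strand) showed the opposite line. It had 0 counts in all 12 D2.1 libraries. D2A1 libraries held 2.94, 2.44 and 1.49 CPM in culture, 13.0, 9.03, 7.84 and 13.4 CPM in BALB/c tumors and 10.2, 13.0, 11.4, 18 and 11.6 CPM in SCID-beige tumors. The D2A1 level was at least 14-fold higher than in D2.1 in culture (adjusted p = 3.49e-04), at least 56.2-fold in BALB/c tumors and at least 68.0-fold in SCID-beige tumors. In culture Dlx5 passed the filter on low counts through D2A1 alone, so that p is no independent support for the difference.

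Within D2A1, Dlx5 was higher in every SCID-beige tumor than in any culture library, by 2.35 ± 0.31 on the log2 scale (SE, adjusted p = 6.41e-05). Hosts overlapped, with a log2 difference of -0.24 ± 0.24 (SE) between BALB/c and SCID-beige tumors. Dlx6, its partner gene 9.2 kb away in an inverted pair on chromosome 6, had 0 counts in all 24 libraries. The antisense transcript Dlx6os1, which overlaps Dlx6, had 0 to 2 counts.

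The other Dlx genes differed from Dlx5 in how they changed with growth site. In culture Dlx1, Dlx2, Dlx4 and Dlx5 passed the filter on low counts, Dlx2, Dlx4 and Dlx5 through D2A1 alone. All were lower in D2.1, where 20.7% of all genes were called lower. Dlx2 had 329 to 372 counts in cultured D2A1 cells and 0 in cultured D2.1 cells, a difference of at least 121-fold. In D2A1 tumors of SCID-beige mice it fell to 1 to 8 counts, a log2 difference of -6.19 ± 0.35 (SE, adjusted p = 1.27e-07). Dlx2 passed the filter on low counts there through culture alone, so this p is no independent support for the fall. Dlx1, its neighbor 9.4 kb away on chromosome 2, fell too, from 7.34 to 10.2 CPM in culture to 0.189 to 1.32 CPM in tumors (-4.02 ± 0.54, SE, adjusted p = 7.85e-05).

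Dlx4 was higher in D2A1 in culture (adjusted p = 5.28e-04), where it passed the filter through D2A1 alone. The lines did not overlap in either host. Dlx4 was 1.09 to 5.85 CPM in D2A1 libraries and 0.0442 to 0.578 CPM in D2.1 libraries. Dlx3 was at 0 to 2 counts in culture in both lines and at 2 to 49 counts in each tumor, with no call between lines. It rose from culture to SCID-beige tumors in D2A1, where the ratio of summed counts was 105 (95% counting interval 18.5 to 4172), and in D2.1, where it was 29.6 (95% counting interval 9.89 to 145). Of the 5 Dlx genes tested in D2A1, 3 rose and 2 fell, where 33.6% of all genes rose and 24.5% fell. Dlx3 passed the filter there through tumors alone and Dlx2 through culture alone, and nothing is read from these counts.

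**Figure D3:**
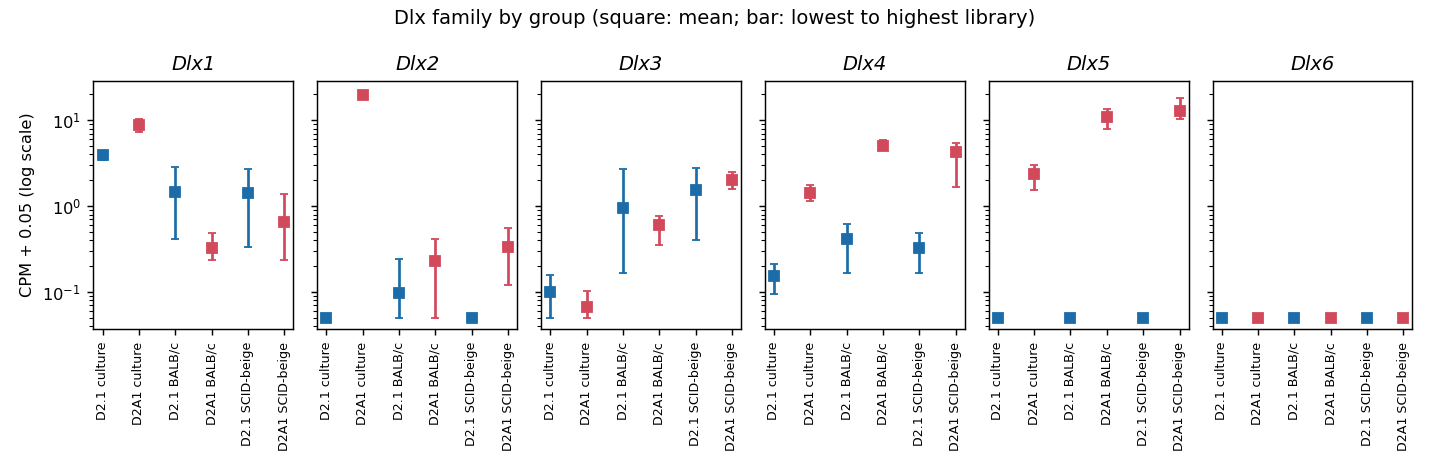
Mean CPM plus 0.05 (log axis) of the 6 Dlx genes in each group, with bars from the lowest to the highest library, D2.1 in blue and D2A1 in red. Dlx5 is higher and Dlx1 and Dlx2 are lower in D2A1 tumors than in cultured D2A1 cells, and Dlx6 is at 0 throughout.

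Runx2 (ENSMUSG00000039153, chromosome 17, bases 44495987 to 44814797, minus strand), the factor that starts osteoblast differentiation, was present in every library and set the tumor groups apart least. In BALB/c mice it was 57.1, 84, 41.9 and 46.1 CPM in D2.1 tumors and 82.0, 75.5, 43.8 and 40.6 CPM in D2A1 tumors. In SCID-beige mice it was 42.2, 59.1, 72.9, 68.4 and 94.0 CPM in D2.1 tumors and 43.4, 43.9, 57.5, 76.1 and 84.7 CPM in D2A1 tumors. The 4 tumor groups overlapped throughout, and their log2 differences between lines were -0.07 ± 0.29 and 0.15 ± 0.24 (SE). Cultured D2.1 cells held 66.4, 57.9 and 70.1 CPM and cultured D2A1 cells 36.9, 35.5 and 40.2 CPM, a log2 difference of 0.79 ± 0.13 (SE, adjusted p = 0.00120).

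The cultured D2A1 cells were thus the only group that did not overlap its neighbor in the order of Runx2 means. From culture to tumor, Runx2 differed by -0.05 ± 0.23 in D2.1 (SE, adjusted p = 0.868) and by 0.57 ± 0.24 in D2A1 (SE, adjusted p = 0.0624, and 0.0492 with DESeq2). On the opposite strand Runx2 overlaps Supt3, which had 6022 counts over the tumors, and whether counting used the strand is not given in the sources used here. Of its relatives, Runx3 was higher in D2.1 in culture (1.78 ± 0.13, SE, adjusted p = 1.30e-05) and stood at 118 to 169 CPM in D2.1 tumors against 43.9 to 74.1 CPM in D2A1 tumors. Runx1 rose from culture to tumor in both lines, by 1.18 ± 0.24 in D2.1 and 1.54 ± 0.19 in D2A1 (SE, adjusted p = 0.00194 and 3.83e-05). Cbfb, the common partner of the Runx factors, fell in D2A1 by 0.82 on the log2 scale (adjusted p = 0.00367).

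Sp7 (ENSMUSG00000060284, chromosome 15, bases 102356606 to 102367182, minus strand), which acts downstream of Runx2 in committed osteoblasts, had 0 to 1 counts in culture. In tumors it had 0 to 3 counts, except for replicates 1 and 4 of the D2.1 tumors in SCID-beige mice with 5 and 9. It passed the filter on low counts in no comparison. Osteocalcin (Bglap), a product of mature osteoblasts, had at most 10 counts in any tumor, and Sost, made by osteocytes, had 0 in all 24 libraries.

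Ibsp (ENSMUSG00000029306, chromosome 5, bases 104299171 to 104311469, plus strand), a matrix protein that binds mineral and integrins, was found in D2A1 tumors. It had 0 to 2 counts in each of the 6 culture libraries. D2A1 tumors held 19.1, 45.7, 41.5 and 22 CPM in BALB/c mice and 99.0, 80.9, 128, 121 and 107 CPM in SCID-beige mice, so that every SCID-beige tumor was above every BALB/c tumor. The log2 difference between BALB/c and SCID-beige was -1.74 ± 0.27 (SE) and ranged from -1.96 to -1.56 over all alternatives. This comparison chose Ibsp, so its size is a description. Of all genes tested there, 1.17% were called (0.906% higher and 0.261% lower in BALB/c mice).

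In D2.1 tumors Ibsp was low and uneven. BALB/c tumors had 43, 0, 3 and 5 counts and SCID-beige tumors 12, 8, 5, 50 and 2. The highest in each host was 2.30 and 2.98 CPM, below every D2A1 tumor. The log2 difference of D2.1 from D2A1 was -5.45 ± 0.86 in BALB/c mice and -6.85 ± 0.57 in SCID-beige mice (SE). From culture to SCID-beige tumors, the ratio of summed counts was 2891 in D2A1 (95% counting interval 800 to 23880) and 27.6 in D2.1 (95% counting interval 7.37 to 232), where Ibsp did not pass the filter and was not tested.

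Spp1 (ENSMUSG00000029304, chromosome 5, bases 104435118 to 104441050, plus strand), a secreted phosphoprotein that binds integrins and CD44, was the most abundant of the 9 genes per length and was higher in D2.1 in culture but in D2A1 in BALB/c tumors. In culture it was 8150, 6828 and 4131 CPM in D2.1 cells and 541, 543 and 452 CPM in D2A1 cells. The groups did not overlap, and the log2 difference was 3.64 ± 0.29 (SE, adjusted p = 1.98e-05). In BALB/c tumors the order was the opposite, with 1066, 1544, 1218 and 887 CPM in D2.1 and 3007, 3448, 3403 and 4535 CPM in D2A1, a log2 difference of -1.60 ± 0.21 (SE) without overlap.

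SCID-beige tumors held 1589, 1956, 4747, 2676 and 2029 CPM of Spp1 in D2.1 and 3552, 3602, 4288, 3425 and 4822 CPM in D2A1. Here replicate 3 of D2.1 lay within the D2A1 range and the other 4 below it, with a log2 difference of -0.59 ± 0.27 (SE). Without replicate 3 of D2.1 it was -0.93. Spp1 thus fell from culture to tumor in D2.1, by 1.40 on the log2 scale (SE 0.35, adjusted p = 0.00551), and rose in D2A1 by 2.80 ± 0.20 (SE, adjusted p = 5.67e-07). The test of the difference between these changes, added after the values were seen, gave -4.22 ± 0.43 on the log2 scale (SE, adjusted p = 2.45e-06), in a comparison in which 12.8% of all genes were called (4.62% with a positive and 8.18% with a negative difference).

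Macrophage transcripts came with the tumors. The summed level of 10 macrophage markers was 3.97 to 14 CPM in culture and 1787 to 4678 CPM in tumors, where all 4 tumor groups overlapped and all 10 markers were detected in each. The summed level of 10 osteoclast markers was 556 to 796 CPM in D2.1 tumors and 116 to 279 CPM in D2A1 tumors. The markers did not move as 1 set, since the median log2 difference between lines of those tested was 0.006 in BALB/c and 1.09 in SCID-beige mice. Most of this sum in D2.1 tumors was Mmp9 (370 to 674 CPM), a protease that other myeloid cells also make, and Calcr, Oscar and Dcstamp were at most 1.21 CPM in any tumor. Replicate 3 of the D2.1 tumors in SCID-beige mice, the highest in Spp1, was also the highest of the D2.1 tumors in macrophage markers (3806 CPM). Other D2.1 tumors went the opposite way. Replicate 4 in SCID-beige mice had the lowest macrophage sum of the D2.1 tumors (1797 CPM) but 2676 CPM of Spp1, below replicate 3 alone. In BALB/c mice, replicate 2 of D2.1 had the lowest macrophage sum (2530 CPM) and the highest Spp1 (1544 CPM) of its group. The part of these cells in the Spp1 values was not tested.

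Between hosts, Spp1 in D2.1 tumors was lower in every BALB/c tumor than in any SCID-beige tumor. The log2 difference of -1.11 ± 0.30 (SE) did not pass the edgeR test (unadjusted p = 0.00279, adjusted p = 0.125), while DESeq2 gave an adjusted p of 0.0120. Adjusted p was 0.0306 in one fit of all tumors and ranged over all alternatives from 0.0120 to 0.443. Of the 4 genes tested in D2.1 tumors between hosts, edgeR called 0, where it called 0.891% of all genes (0.871% higher and 0.0201% lower in BALB/c mice). With DESeq2, 1 was called, beside 461 of 14929 over all genes. An unadjusted p under 0.05 was found for 1 in edgeR, beside 1489 of 14929 over all genes. In DESeq2 it was found for 2, beside 1690 of 14929. In D2A1 tumors Spp1 overlapped between hosts, with a log2 difference of -0.13 ± 0.18 (SE).

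**Figure D4:**
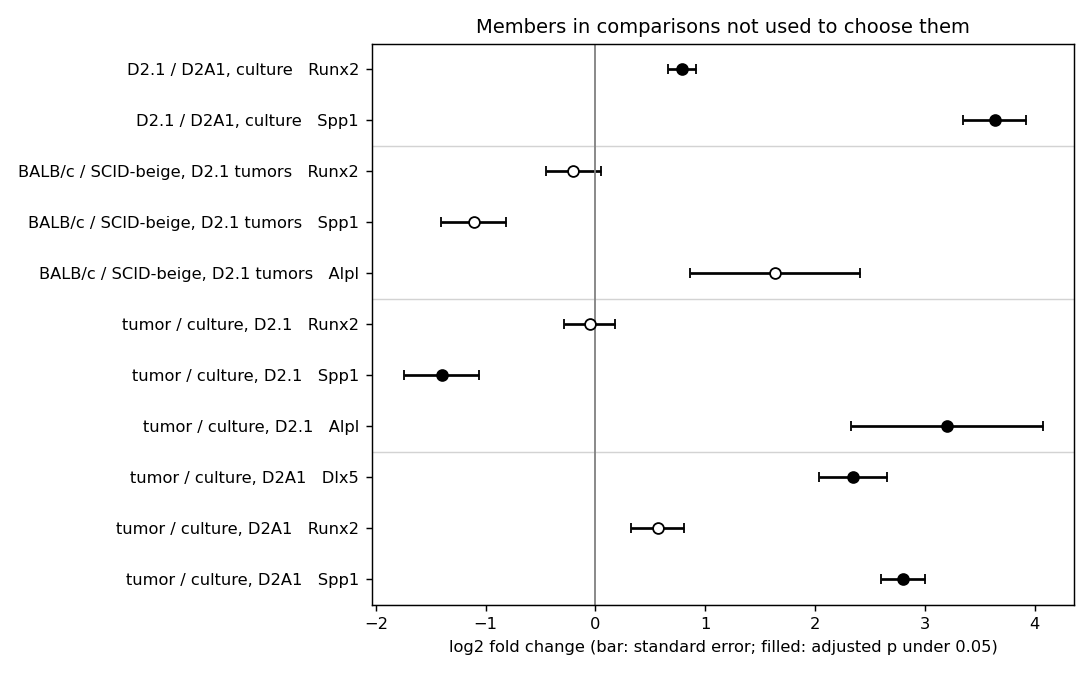
Log2 fold change with its standard error in comparisons and tumors that played no part in choosing the gene shown, for genes with more than 10 counts in both groups, filled where the adjusted p was under 0.05. Spp1 lies on opposite sides of 0 for tumor against culture in D2.1 (-1.40) and D2A1 (2.80), and no gene is filled for D2.1 tumors between hosts.

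The SIBLING cluster on chromosome 5 runs from Dspp through Dmp1, Ibsp and Mepe to Spp1. Dmp1, a matrix protein of osteocytes and dentin 85.1 kb before Ibsp, had 3 to 6 counts in each culture library. It rose in SCID-beige tumors of both lines, by 5.75 ± 0.88 in D2.1 and 4.53 ± 0.44 in D2A1 (SE, adjusted p = 2.85e-04 and 6.03e-06). In both lines Dmp1 passed the filter on low counts through tumors alone, so these p are no independent support for the rise. Its tumor values overlapped between lines, at 2.74 to 31.3 CPM in D2.1 and 1.39 to 9.39 CPM in D2A1. Mepe, 13.9 kb beyond Ibsp, had 0 counts in all D2.1 libraries and at most 11 in D2A1 tumors. Dspp had 1 count in 1 library and 0 in the others.

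**Figure D5:**
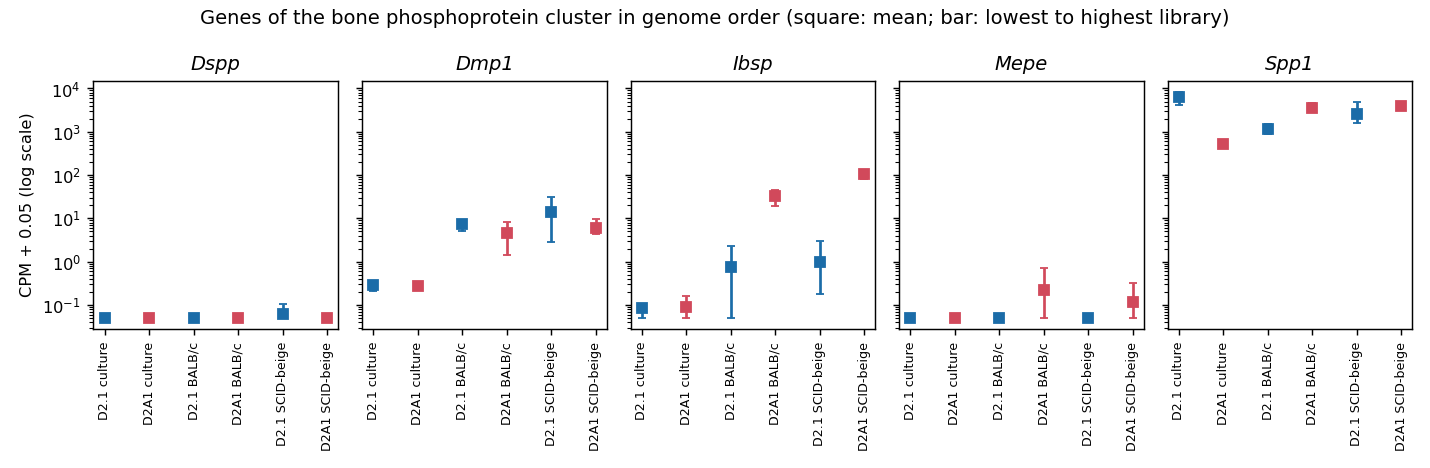
Mean CPM plus 0.05 (log axis) of the SIBLING genes in genome order from left to right, with bars from the lowest to the highest library, D2.1 in blue and D2A1 in red. Ibsp reaches 128 CPM in D2A1 tumors with Mepe, its neighbor, at most 0.681 CPM.

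Alpl (ENSMUSG00000028766, chromosome 4, bases 137741733 to 137796384, minus strand) was low in culture, with 6, 7 and 4 counts in D2.1 and 3, 0 and 1 in D2A1, and was not tested there. BALB/c tumors held 23.7, 2.83, 3.65 and 5.07 CPM in D2.1 and 3.36, 4.08, 4.10 and 4.27 CPM in D2A1. SCID-beige tumors held 1.84, 2.58, 0.288, 7.22 and 2.52 CPM in D2.1 and 11.3, 6.04, 12.5, 5.99 and 8.95 CPM in D2A1. The D2A1 tumors of SCID-beige mice were thus all above those of BALB/c mice, as they were for Ibsp, with a log2 difference of -1.18 ± 0.27 (SE) between BALB/c and SCID-beige.

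In D2.1 the Alpl values spread widely within each host. Replicate 1 in BALB/c mice, with 23.7 CPM, was also the highest of its group in Ibsp, and it held 500.2 CPM of milk protein transcripts and, also the highest of its group, 806 CPM of adipocyte and 356 CPM of skeletal muscle markers. Replicate 4 in SCID-beige mice, with 7.22 CPM, was the highest of its group in Ibsp, Sp7 and Col10a1. It was also the highest in skeletal muscle markers (279 CPM) and adipocyte markers (141 CPM) and the lowest in macrophage markers (1797 CPM), and the part of these cells was not tested. The log2 difference between lines was 1.17 ± 0.62 in BALB/c mice (-0.03 without that replicate 1) and -1.63 ± 0.56 in SCID-beige mice (SE). From culture to SCID-beige tumors Alpl rose in D2.1 by 3.20 ± 0.87 (SE, adjusted p = 0.00948), and in D2A1 the ratio of summed counts was 120 (95% counting interval 46.5 to 440, adjusted p = 4.77e-06). In both lines Alpl passed the filter on low counts through tumors alone. Between hosts in D2.1 it was 1.64 ± 0.77 (SE, adjusted p = 0.516).

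Of the 9 genes, 4 passed the filter on low counts in culture, Dlx5 and Col2a1 through the line in which they were high. All 4 were called (Col2a1, Runx2 and Spp1 higher in D2.1, Dlx5 lower), beside 44.9% of all genes, and with this filter the count itself says little. The counts of called genes were 4 of 6 in BALB/c tumors, beside 32.6% of all genes, and 4 of 6 in SCID-beige tumors, beside 32.1%. Those comparisons chose some of the genes, so nothing is read from either count. From culture to SCID-beige tumors, 3 of 4 were called in D2.1 (53.1% of all genes, 30.8% higher and 22.3% lower in tumors) and 4 of 5 in D2A1 (58.1%). These counts include Col2a1 and Ibsp, which the same tumors helped to choose, and genes that passed the filter through tumors alone, and nothing is read from them. The interaction of line and host called 0 of 6 in edgeR, beside 0.0187% of all genes. DESeq2 also called 0 of the 6, beside 105 of 16036 over all genes. An unadjusted p under 0.05 was found in edgeR for 2 of the 6, beside 1355 of 16036 over all genes. These 2 were Alpl (2.79 ± 0.90 on the log2 scale, SE, adjusted p = 0.352 in edgeR) and Spp1 (-1.01 ± 0.36, SE, adjusted p = 0.429 in edgeR).

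Among 25 osteoblast genes, all that were called from culture to tumor rose, but some passed the filter on low counts through tumors alone. Among these were Bmp2 (1 summed count in D2.1 culture, 0 in D2A1 culture) and Dlx3 (3 and 1), and in D2A1 also Bmp4 and Msx1 (0 each). Such genes could be called only as a rise, so the counts below say little. In D2.1, 11 of 14 tested were called and all 11 rose, where 53.1% of all genes were called and 30.8% rose. In D2A1, 12 of 16 were called and all 12 rose, where 58.1% of all genes were called and 33.6% rose. The medians were 1.92 and 4.30 on the log2 scale, beside 0.09 and 0.10 over all genes. Markers of host cells rose in the same comparisons, with all 10 fibroblast, all 10 macrophage and all 8 endothelial markers called higher in both lines and medians of 7.17 and 9.11 for fibroblast markers, and their part in the osteoblast list was not tested. Bmp2, a secreted factor that promotes bone formation, had 0 to 1 counts in culture and was 0.859 to 27.3 CPM in D2.1 tumors and 1.65 to 5.80 CPM in D2A1 tumors. In culture, 6 of 10 were higher in D2.1 and 1 was lower, where 24.2% of all genes were called higher and 20.7% lower. The 6 were led by Col1a1 (type I collagen, 4.66 ± 0.24, SE, adjusted p = 1.88e-06), at 32358 to 47470 counts in D2.1 against 1239 to 1623 in D2A1.

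Col1a1 and Col1a2, which encode the chains of one collagen, differed in level in cultured D2.1 cells, where Col1a2 had 73 to 132 counts. In D2.1 tumors of SCID-beige mice Col1a2 was 18.3 to 377 CPM, below or within the 330 to 841 CPM of the D2A1 tumors, while Col1a1 was 2394 to 5374 CPM against 746 to 1779 CPM. In BALB/c tumors 6 of 18 osteoblast genes were called higher and 3 lower in D2.1, beside 16.8% and 15.8% of all genes. In SCID-beige tumors 2 of 15 were higher and 3 lower, beside 17.2% and 14.8%. Between hosts, 0 of 15 were called in D2.1, beside 0.891% of all genes. An unadjusted p under 0.05 was found for 4 of them, beside 1489 of 14929 over all genes. In D2A1 an unadjusted p under 0.05 was found for 4 of 16, beside 1472 of 14572 over all genes. Of these 16, 1 was called, beside 1.17% of all genes. It was Omd (osteomodulin, a leucine-rich protein of bone matrix), lower in BALB/c mice like Ibsp. Omd stood at 15.2 to 18.3 CPM in BALB/c and 30.2 to 47.9 CPM in SCID-beige tumors.

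Within the tumor table, per length, Spp1 led the 9 genes in every group, at a mean of 1096 to 3754 FPKM. Runx2 followed at 25.3 to 29.5 FPKM, except that Col2a1 was above it in D2.1 tumors (29.9 FPKM in BALB/c and 45.9 FPKM in SCID-beige mice) and Ibsp above it in D2A1 tumors of SCID-beige mice (52.8 FPKM). Alpl had means of 3.52 to 11.5 FPKM and Dlx5 of 8.16 to 9.44 FPKM in D2A1 tumors. The order below Spp1 rests on the lengths behind the tumor table. These were 2232 bases for Runx2 and 792 for Alpl, against 6463 and 2522 in the culture table, while Ibsp had 2068 in both. In the culture table Spp1 again led, at 4004 FPKM in D2.1 and 355 FPKM in D2A1, followed by Runx2 at 9.63 and 6.08 FPKM.

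Across the 18 tumors, the protein-coding genes most like these in log2 CPM, out of 13764 compared, followed the line split that the tumors share. For Col2a1 they were Ppp1r14c (Pearson r = 0.993), Trp53 (0.993) and Eya1 (0.989). For Dlx5 they were Arhgap23 (0.996), Morc1 (0.995) and Olfr1501 (0.992). For Ibsp they were Shroom1 (0.979), Mmp10 (0.970) and Klhl30 (0.970). These values describe likeness over tumors of 2 lines and carry no test.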

How the data were processed

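RNA-seq was measured in 6 culture and 18 tumor libraries, grouped by the sample labels. Libraries were made and sequenced by Novogene on a NovaSeq. The authors deposited raw read counts per gene, without normalization, and FPKM values, which were the counts divided by gene length and library total in 100% of genes checked. The submitters' processing notes name STAR and mm10, and the counting program, annotation and strand setting are not given in the sources used here. Gene lengths behind FPKM were within 1% of each other in the culture and tumor tables for 13.5% of 12546 genes. Identifiers were matched to GENCODE M21 (GRCm38).

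Counts were analysed with edgeR 4.0.16 in R 4.3.3: TMM scaling, the default filter on low counts, robust quasi-likelihood fits of only the groups compared (all 18 tumors where line and host were tested together) and Benjamini-Hochberg adjustment over all genes tested. Standard errors are the log2 fold change divided by the square root of F. Counting intervals at 95% are exact and cover counting error only. Folds against a group at 0 are bounds against 3 counts per library. The study calls its in vitro replicates technical and does not state whether the sequenced cultures were separate, so culture p-values measure only the spread between these libraries, which may be technical. Fits were checked on simulated data.

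The genes and lists were chosen with earlier results of these data known. Other genes named are the up to 4 called genes with the largest fold change per list and comparison, and the 3 most correlated protein-coding genes for Col2a1, Dlx5 and Ibsp. Sox6, Col11a2, Matn1, Ucma, Cnmd, Epyc, Bglap, Sost, Mepe, Dspp and Dlx6os1 were named after their values were seen. The main fits and their p-values used no pairing. Replicate numbers were tried as a block in an alternative fit only, since no source gives a shared day. Across genes, deviations of same-numbered libraries from their group means all correlated positively in these comparisons: the lines in culture (0.184 to 0.491), the lines in BALB/c mice (0.100 to 0.491) and D2A1 tumors against culture (0.131 to 0.273). Alternatives were DESeq2 1.42.0, its size factors in edgeR, at least 10 counts, no filter, the replicate block, one fit of all tumors, FPKM in place of CPM and each library left out. The test of line by growth site was added after seeing the data.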

Additional observations from a re-analysis of the deposited data

Results flagged for a closer look

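The difference between D2.1 and D2A1 differed between SCID-beige tumors and culture for Spp1, by the edgeR test of line by growth site over 16 libraries. The log2 difference of differences was -4.22 (adjusted p = 2.45e-06, and at most 2.63e-05 over all alternatives). For Col2a1 it was 9.74, a fitted value that rests on D2A1 tumors at 0 counts and on 1, 0 and 2 counts in cultured D2A1 cells. It is given without a test, because the same SCID-beige tumors chose Col2a1.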

How the results depend on the processing

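Counts of the genes called were the same or within 1.5 times in 131 of 141 alternative fits. In culture 4 were called in every alternative except 3 without replicate 1 or replicate 3 of the D2.1 cells, when Col2a1 did not pass the filter, and in BALB/c tumors 4 in all. Between hosts in D2.1 tumors, DESeq2 and one fit of all tumors called 1 in place of 0, Spp1. Over all genes they called 461 of 14929 and 261 of 16036, where the main fit called 133 of 14929. Between hosts in D2A1 tumors, DESeq2 called 2 (Ibsp and Alpl) in place of 1, and the replicate block and one fit of all tumors 0. Over all genes the main fit called 170 of 14572, DESeq2 569, the replicate block 0, and one fit of all tumors 239 of 16036. Fits without 1 library called 0 to 2 of the genes. It was 0 without replicate 4 of the BALB/c tumors (27 of 14874 over all genes) and 2 without replicate 2 of the SCID-beige tumors (172 of 14443). This comparison chose Ibsp, so nothing is read from its calls. For line by growth site DESeq2 called 4 in place of 2, beside 2439 of 15077 over all genes in place of 1930. Fits without 1 library called 1 to 4, with 4 without replicate 4 of the D2.1 tumors (2164 of 14961 over all genes). The replicate block gave 4 in culture, 4 in BALB/c tumors and 4 for D2A1 tumors against culture, as without it, and changed no other call in these comparisons. Over all genes it called 7539 of 12489, 7116 of 14953 and 9299 of 13869 there. Where same-numbered libraries did not all correlate positively (-0.161 to 0.344 for the lines in SCID-beige mice, -0.441 to -0.187 and -0.198 to 0.169 between hosts in D2A1 and D2.1, and -0.135 to 0.0411 for D2.1 tumors against culture), the block gave 5 for the lines in SCID-beige tumors. Over all genes the block called 5311 of 14355 between lines in SCID-beige tumors. The call of Alpl in SCID-beige tumors between lines was lost without a filter and without any of 6 of the 10 libraries. Signs turned for values near 0. Runx2 ranged from -0.32 to 0.10 between lines in BALB/c mice, from -0.0069 to 0.29 in SCID-beige mice, from -0.20 to 0.13 between hosts in D2A1 (0.10 with the replicate block) and from -0.31 to 0.061 for D2.1 tumors against culture. Alpl between lines in BALB/c mice ranged from -0.031 to 1.46. FPKM in place of CPM kept the order of the 4 tumor groups in 5 of 6 genes. The causes were not tested. Genes at a few counts, such as Sp7 and Acan, could not be compared at this depth.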
